A study of Mus musculus with 24 samples.

Results

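Basophils of TTP-KO mice were compared with WT basophils when a pulse with antigen and 4-thiouridine (s4U) ended, 3 libraries against 3, out of 24 libraries in 8 groups. All 6 libraries carry the time label 0 hour after removal of the antigen and were chosen by that label and by genotype (WT or TTP-KO). The cells were grown from bone marrow for 7 days in IL-3 (0.3 ng/mL). Hapten-specific IgE (1 µg/mL) and s4U (150 µM) were added on day 6, cells bearing CD49b were then enriched magnetically, and the antigen TNP-OVA (10 ng/mL) was given for 1.5 h with s4U still present. The other groups were washed and kept for 1, 2 or 4 h without s4U and antigen. Both genotypes received the same IgE, antigen and s4U, the s4U was in the medium from day 6 and not only during the pulse, and no library without s4U was analysed here. The labels do not say which part of the TTP gene is deleted, or whether libraries came from separate mice, so the p-values reflect only how much these particular libraries vary, and that variation may be technical.

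TTP (tristetraprolin, the product of Zfp36) binds AU-rich elements in the 3' untranslated regions of short-lived mRNAs, many of them cytokine mRNAs, and recruits the enzymes that shorten the poly(A) tail. Basophils are rare granulocytes that bind IgE through the receptor FcεRI and, when antigen crosslinks it, release granule proteins and make IL-4, IL-6 and chemokines. In SLAM-seq, cells build s4U into RNA made while it is present, alkylation turns the incorporated s4U into T-to-C conversions in the reads, and the new-to-total ratio of a gene estimates which share of its RNA carries label. That ratio, called the labelled share here and given in percent, is a share and not an amount: it can differ through the new RNA, the old RNA or the s4U that cells take up.

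In each library 11030 to 11336 genes had a ratio. The libraries of 1 h held 14689038 to 19842418 reads and were used for the read depth of each gene, because 0 h reads were not used here. Zfp36 stood at 137, 124 and 98.5 CPM (counts scaled to the library's total) in the 3 WT libraries of 1 h and at 33.2, 40.9 and 53.8 in the 3 TTP-KO libraries. All 3 TTP-KO libraries lay below all 3 WT libraries, but a 3' tag can lie outside the deleted part and then checks nothing. The 7 defining basophil markers, Mcpt8 and Prss34 among them, summed to 25307 to 26711 CPM in WT and 26914 to 27957 in TTP-KO at 1 h, with no marker at 0 in all of these libraries. The 25 monocyte and macrophage markers measured summed to 1288 to 1552 in WT and 3029 to 3502 in TTP-KO, again with no marker at 0 throughout. The wider list of 36 basophil genes summed to 69519 to 74099 in WT and 67643 to 72467 in TTP-KO, which overlapped. Mast cell markers were lower in TTP-KO without overlap (16777 to 17532 against 14386 to 15755), as were NK and T cell markers (881 to 1001 against 625 to 793), and dendritic and B cell markers were higher (438 to 523 against 591 to 679). Few genes carry these sums. Only 4 of the 16 NK and T cell markers had reads in all 1 h libraries, 7 were at 0 throughout, and 1 had at least 10000 reads. Of 19 dendritic and B cell markers 8 had reads in all and 3 were at 0 throughout. Of 11 mast cell markers it was 6 and 1. In such bulk samples, fewer cells of a type and less RNA per cell cannot be told apart.

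The sequences that TTP is known to bind are shown for 6 mRNAs of activated basophils whose labelled shares follow. Each line gives a stretch of the 3' untranslated region in DNA letters, 5' to 3' on the transcript strand, from GENCODE M21 on GRCm38, with the match in capitals; the nonamer TTATTTATT was searched first and the heptamer TATTTAT, which the nonamer contains, after it.
Cxcl2: gagttcacTTATTTATTtatctatg
Ptgs2: gaccatatTTATTTATTtatgtgaa
Areg: tttaagtgTTATTTATTttatagct
Il6: atgattgaTATTTATtattttta
Il1b: cacttaccTATTTATttatgtat
Il4: atttttaaTATTTATatatttat
They lie in the 3' untranslated exons at chr5:90905318-90905342 (plus strand), chr1:150105792-150105816 (plus), chr5:91148384-91148408 (plus), chr5:30019731-30019753 (plus), chr2:129364811-129364833 (minus) and chr11:53612498-53612520 (minus), in that order. Cxcl2 has 4 nonamers, Ptgs2 and Areg have 1 each, and Il6, Il1b and Il4 have only heptamers (1, 3 and 2). Among genes not shown, Tnf has 5 nonamers, and Ccl3, Ccl4 and Csf1 have 1 heptamer each and no nonamer. The submitters' processing notes name GRCm39, so the coordinates are not those of the deposited table.

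The first question was whether the label load, the median labelled share over genes, was the same in WT and TTP-KO cells when the pulse ended. It was higher in each TTP-KO library than in each WT library. Over 7845 genes with a ratio in all 6 libraries and a mean of at least 100 reads at 1 h, the median was 11.3%, 9.79% and 11.1% in WT libraries A, B and C. It was 14.5%, 19.8% and 16.3% in TTP-KO libraries A, B and C. The groups did not overlap, and TTP-KO library B stood highest. The group means were 10.7% ± 0.81 (SD, n = 3) and 16.9% ± 2.69 (SD, n = 3), a difference of 6.18 percentage points. The exact two-sided permutation test over libraries gave p = 0.1, the smallest value that 3 against 3 allows, so this design cannot pass 0.05.

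**Figure D1:**
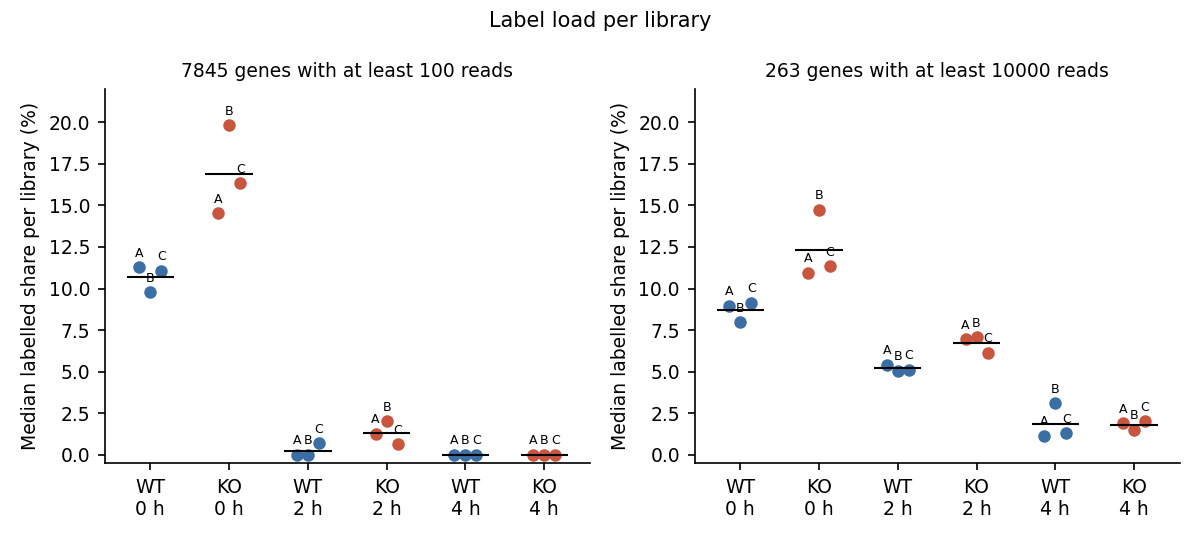
Median labelled share (y axis, percent) of each library at 0, 2 and 4 h by genotype (x axis), for all genes tested (left) and for genes with at least 10000 reads (right); each point is 1 library with its letter and bars are means of 3. At 0 h the 3 TTP-KO points lie above the 3 WT points in both panels, and WT library B of 4 h stands apart.

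The size of the difference changed with the genes that were summarised. In genes of ribosomal proteins, respiration and glycolysis, 139 genes that most cells use, the medians were 15.0% ± 0.89 in WT and 19.9% ± 2.78 in TTP-KO (SD, n = 3 each). In the 263 genes with at least 10000 reads they were 8.69% ± 0.64 and 12.3% ± 2.07 (SD, n = 3 each). In those 263 genes the load was still apart at 2 h, 5.42%, 5.06% and 5.12% in WT against 6.95%, 7.08% and 6.14% in TTP-KO. Over the 7845 genes the 2 h medians overlapped, 0%, 0% and 0.69% against 1.28%, 2.03% and 0.64% (exact permutation p = 0.2), near the floor of 0%. So did those of the 139 genes, 12.5%, 13.2% and 14.6% against 15.3%, 16.3% and 14.2% (exact permutation p = 0.2). Means over genes at 2 h did not overlap, with 6.83%, 7.21% and 6.21% against 8.22%, 8.70% and 8.02% over the 7845. Over the 139 the means were 12.8%, 13.5% and 14.2% against 15.8%, 15.9% and 14.6% (exact permutation p = 0.1 for each set). At 4 h in the 263 genes the medians overlapped, 1.15%, 3.12% and 1.29% against 1.92%, 1.51% and 2.02%, and WT library B of 4 h stood apart.

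The second question was which genes differed in labelled share. With the planned test, limma on log2 odds of the share over all 7845 genes with Benjamini-Hochberg adjustment, no gene was called at an adjusted p under 0.05 (0% called). At an unadjusted p under 0.05 there were 555 genes (7.07%), 464 higher (5.91%) and 91 lower (1.16%) in TTP-KO, and the smallest adjusted p from limma was 0.248. In simulated data of the same 7845 genes, a change of 4 on the log2 odds scale was recovered in 0 of 100 genes, so this count says little about single genes. With the 2 h and 4 h libraries in the same fit, limma called 182 genes (2.32%), 156 higher (1.99%) and 26 lower (0.331%); why that count differs was not tested. The 3 TTP-KO libraries lay above the 3 WT libraries in 991 genes (12.6%) and below them in 137 (1.75%).

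How well a labelled share was measured followed the reads of the gene. Among the 3919 genes with 100 to under 500 reads, the rank correlation between pairs of the 6 libraries was 0.11 to 0.18 across genes, and the median SD of 3 libraries was 15.5 percentage points in WT and 17.8 in TTP-KO. Among the 263 genes with 10000 reads or more it was 0.86 to 0.92, with median SDs of 1.73 and 2.44 points. The TTP-KO mean was the higher one in 62.4% of genes in the lowest read class, 70.6% and 85.6% in the next ones, and 95.8% (252 of 263) in the highest.

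**Figure D2:**
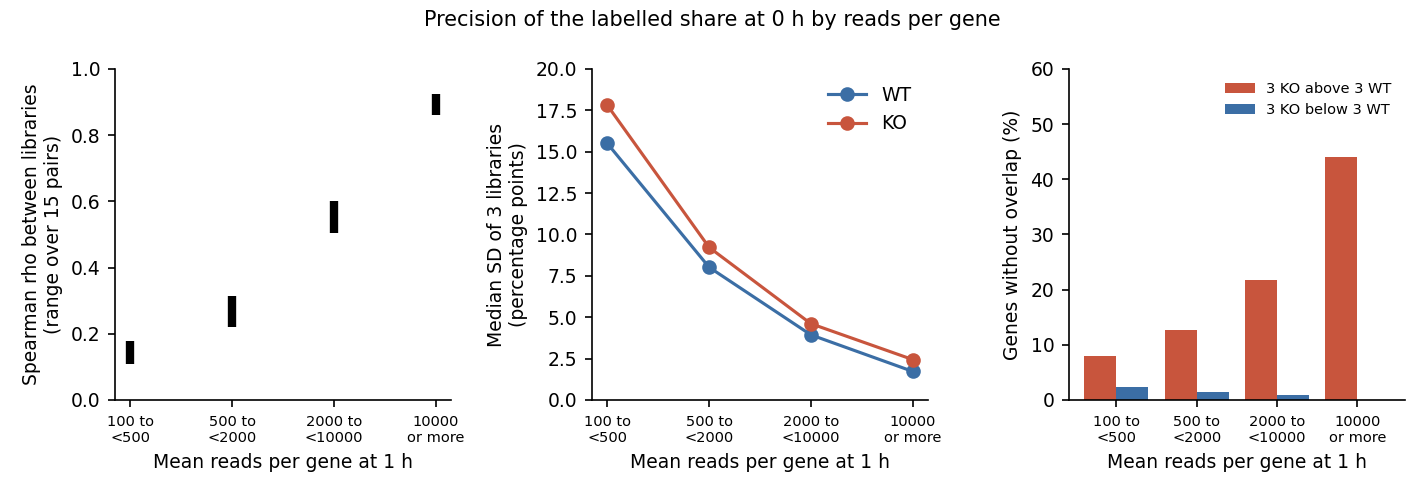
By mean reads per gene at 1 h (x axis, 4 classes): Spearman correlation between libraries across genes (left, range over pairs), median SD of the labelled share over 3 libraries (middle, percentage points) and percent of genes whose libraries do not overlap (right). The correlation climbs to between 0.86 and 0.92 in the class with the most reads, where the TTP-KO libraries lie above WT in 44.1% of genes.

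With the 0 h libraries alone, calls of single genes came mainly from that highest class. The threshold of 10000 reads was chosen after the results at other thresholds had been seen. At minimums of 100, 500 and 2000 reads the same limma fit called 0 genes, and at 10000 reads it called 57 of 263 higher in TTP-KO (21.7%) and 0 lower. The adjustment then covers 263 genes only. Of 33 settings tried below that threshold, 25 called no gene, 7 called 1 to 4, and the fit with the 2 h and 4 h libraries called 182. The 57 also rest on TTP-KO library B, which has the highest load: without it 9 genes were called, 7 of them among the 57. Of the 263 genes, 13 reached 10000 reads only in the TTP-KO mean, 3 of them called (Il1b, Lyz2 and Ppbp). With 10000 reads required in the mean of each genotype, 47 of 246 genes were called, all of them among the 57. With each library centred on its own median, which takes out the difference in load, 5 were higher (1.90%) and 1 was lower (0.38%), 2.28% in all. The values that follow are therefore best read library by library, and adjusted p-values are those of limma over the 263 genes.

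**Figure D3:**
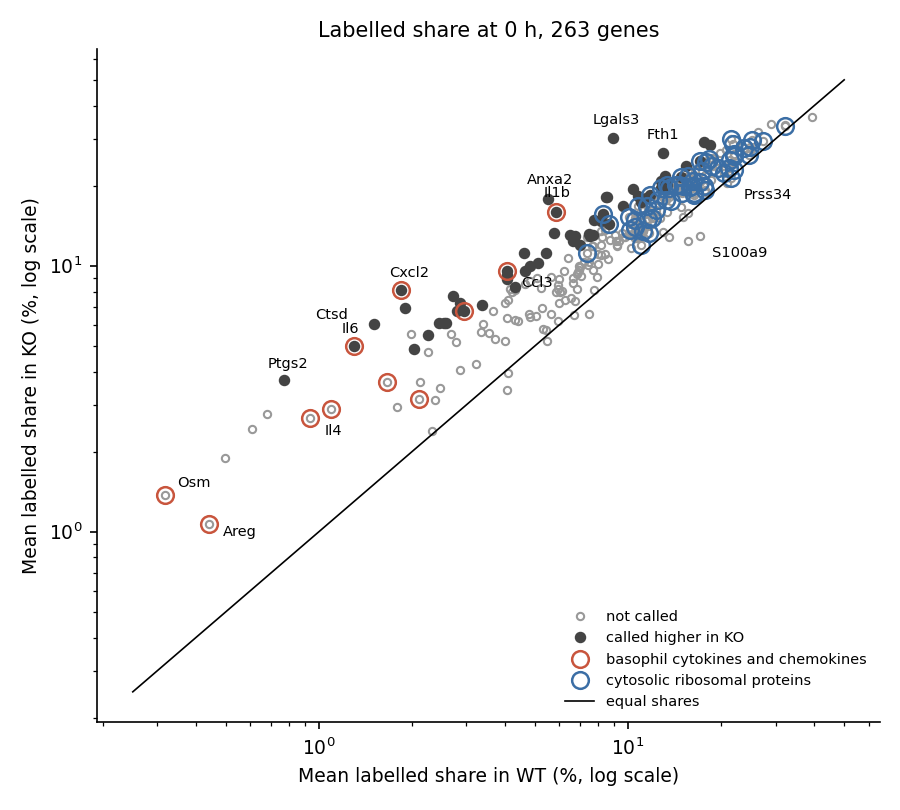
Mean labelled share of 3 TTP-KO libraries (y axis, percent, log scale) against that of 3 WT libraries (x axis, percent, log scale), 1 point per gene with at least 10000 reads; filled points were called, rings mark cytokine and ribosomal protein genes and the line marks equal shares. Of the 263 points, 252 lie above the line, and the cytokine genes lie at low labelled share.

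The 11 cytokine and chemokine mRNAs with at least 10000 reads had a median labelled share (over gene means) of 1.66% in WT and 3.64% in TTP-KO, beside 8.52% and 12.9% over the 263 genes, and Il1b was above that TTP-KO median. Of the 11, 5 were called higher in TTP-KO, against 57 of 263 genes in all, and 1 after centring. Those 5 were Cxcl2, Il6, Il1b, Ccl3 and Ccl4. Il1b entered the 11 only because its reads are high in TTP-KO, and the counts are not given without it. The median difference of the 11 was 1.22 on the log2 odds scale, beside 0.53 over the 263 genes, and it was 0.67 beside -0.03 after centring. In 10 of the 11 the TTP-KO libraries lay above the WT libraries, beside 44.1% of the 263. The list was chosen with earlier results of these data known.

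Cxcl2, which encodes a neutrophil-attracting chemokine, had labelled shares of 2.33%, 1.01% and 2.20% in the WT libraries and 6.94%, 11.8% and 5.69% in the TTP-KO libraries. Every TTP-KO value was above every WT value, with library B highest. The difference was 2.26 ± 0.47 on the log2 odds scale (SE, limma adjusted p = 0.00066), and 1.70 after centring (adjusted p = 0.045). Without TTP-KO library B the limma adjusted p was 0.071.

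Il6, the gene of interleukin-6, had 1.31%, 0.74% and 1.84% in WT and 4.21%, 6.59% and 4.24% in TTP-KO. The groups did not overlap, and the difference was 1.92 ± 0.49 (SE, limma adjusted p = 0.0053), with an adjusted p of 0.025 without TTP-KO library B and 0.051 after centring. Il1b, the gene of interleukin-1β, had 6.99%, 7.21% and 3.38% in WT and 16.2%, 14.5% and 17.1% in TTP-KO. Its library B was the lowest of the 3 TTP-KO values, unlike that of Cxcl2 and Il6. Il1b passed the read minimum only because its reads are high in TTP-KO (a mean of 6327 in WT and 14185 in TTP-KO at 1 h). The difference of Il1b was 1.68 ± 0.32 (SE, limma adjusted p = 0.00027), with 0.071 without TTP-KO library B and 0.19 after centring.

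The chemokine genes Ccl3 and Ccl4 had 425607 and 377968 reads on average at 1 h, far above the threshold. Ccl3 had 3.86%, 3.93% and 4.37% in WT and 7.82%, 12.2% and 8.74% in TTP-KO. Ccl4 had 2.52%, 2.68% and 3.67% in WT and 5.07%, 9.49% and 5.78% in TTP-KO. For neither did the genotypes overlap. The limma adjusted p was 0.017 for Ccl3 and 0.039 for Ccl4, but 0.10 and 0.14 without TTP-KO library B and 0.17 and 0.31 after centring.

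Il4, the gene of the signature cytokine of basophils, did not pass the test. It had 1.16%, 0.88% and 0.77% in WT and 1.89%, 4.10% and 2.03% in TTP-KO, which did not overlap, with a limma adjusted p of 0.063. Without TTP-KO library B it was 0.020 (difference 0.91 ± 0.15, SE), so the call turned on that library in the other direction. WT libraries B and C lay under the clip of 0.01 and were set to it, which narrowed the WT spread. With all libraries, the SE of Il4 was 0.52, and 0.76 when clipped at 0.001 (limma adjusted p = 0.145). The fit without TTP-KO library B was not run with that clipping. Csf1, the gene of the macrophage growth factor M-CSF, had 1.34%, 0.48% and 1.46% against 1.87%, 4.02% and 2.77% (limma adjusted p = 0.080). Areg, which encodes the growth factor amphiregulin, had 0%, 0.06% and 1.26% against 0.59%, 2.63% and 0%, which overlapped (limma adjusted p = 0.58, with the sign turning to -0.20 after centring).

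Il13 and Tnf had fewer than 10000 reads and were tested only among the 7845 genes. Il13 had 4.99%, 0.35% and 10.8% in WT and 4.45%, 4.18% and 2.31% in TTP-KO, which overlapped, with WT library B lowest of all. Tnf had 3.0%, 1.02% and 4.78% against 5.70%, 4.00% and 4.73%, which overlapped. Neither was called.

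**Figure D4:**
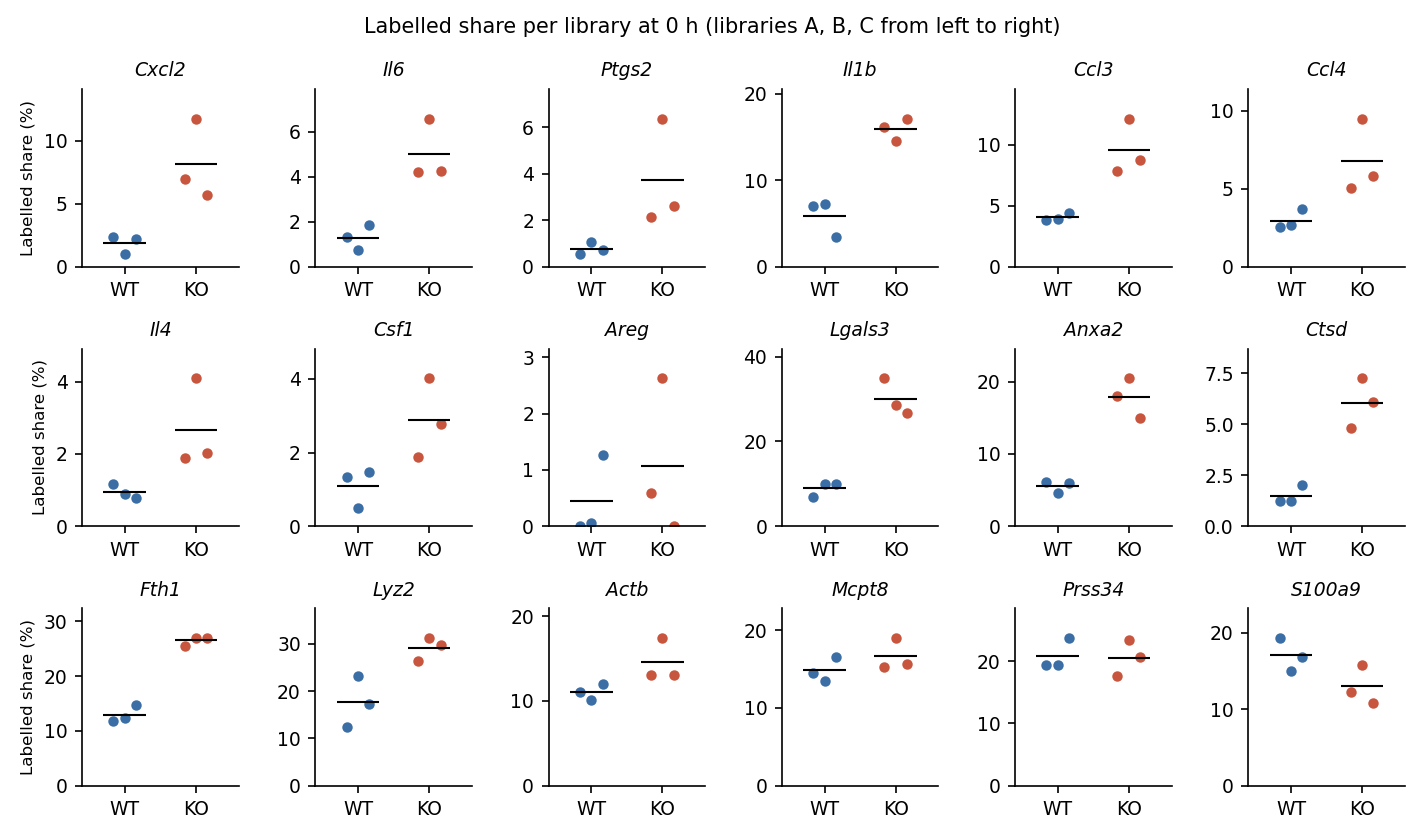
Labelled share (y axis, percent, own scale per panel) of 18 genes in each WT and TTP-KO library at 0 h (x axis); points are libraries A, B and C from left to right and bars are means of 3. The genotypes do not overlap for Cxcl2, Il6 and Lgals3, and overlap for Areg and Prss34.

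Among mRNAs known from earlier work as TTP targets, 6 of the 13 with at least 10000 reads were called higher (against 21.7% of the 263), the 5 cytokine genes above and Ptgs2. Il1b, 1 of these 6, entered the 13 only through its reads in TTP-KO. After centring 1 of the 13 was called. Ptgs2, which encodes the prostaglandin-producing enzyme COX-2, had 0.55%, 1.04% and 0.73% in WT and 2.15%, 6.37% and 2.63% in TTP-KO. The groups did not overlap, and the limma adjusted p was 0.017, both with and without TTP-KO library B, and 0.17 after centring. WT libraries A and C lay under the clip of 0.01 and were set to it. Clipped at 0.001 instead, the limma adjusted p with all libraries was 0.049. The 13 share 5 of their called genes with the cytokine list, so both counts describe largely the same genes. Plaur, the gene of the urokinase receptor, with 3163 reads, had 6.77%, 15.7% and 16.3% against 13.3%, 18.4% and 9.90%, which overlapped.

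Genes with and without the motifs were counted in the same way. Of the 14 genes with at least 10000 reads and a nonamer, 4 were called (28.6%), and of the 249 without one, 53 (21.3%). The 4 were Cxcl2, Diaph1, Ptgs2 and Rps16. Among annotated transcripts of equal rank the longest region was searched, 516 bases for Rps16, and these cells may use a shorter one. The TTP-KO libraries lay above WT in 28.6% of the 14 and 45.0% of the 249, the opposite order. With a heptamer the called genes were 14 of 54 (25.9%) and without one 43 of 209 (20.6%). Il1b, which passed the read minimum only through TTP-KO, is among the 14. Over 7789 matched genes with at least 100 reads, 29.5% hold the heptamer and 7.50% the nonamer, and the TTP-KO libraries lay above WT in 12.4% of genes with the heptamer and 12.7% of those without it. A match describes letters in the annotated region and not binding.

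The gene of TTP itself and those of its relatives were read less deeply. Zfp36, with a mean of 1347 reads at 1 h, had labelled shares of 8.38%, 3.08% and 0% in WT and 22.5%, 22.5% and 14.3% in TTP-KO. That mean overstates the TTP-KO depth, since Zfp36 averaged 120 CPM in WT and 42.6 in TTP-KO at 1 h. Genes with 500 to under 2000 reads had median SDs of 8.02 points in WT and 9.22 in TTP-KO. The Zfp36 shares did not overlap between genotypes, but the difference of 2.97 ± 1.08 on the log2 odds scale did not pass the test over 7845 genes (limma adjusted p = 0.66). Zfp36l1, a relative that binds the same elements, had 8.21%, 1.34% and 13.1% against 2.98%, 13.2% and 2.59%. Zfp36l2, another relative, had 3.46%, 11.2% and 14% against 16.1%, 13.4% and 14.6%. Both overlapped between genotypes.

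Several genes with a large difference were not cytokine genes. Lgals3, which encodes the sugar-binding protein galectin-3, had 6.93%, 10.1% and 9.90% in WT and 34.9%, 28.7% and 26.7% in TTP-KO. Library B was not the highest of the TTP-KO values here. The difference was 2.14 ± 0.26 on the log2 odds scale (SE, limma adjusted p = 1.33e-08), with 0.017 without TTP-KO library B and 0.020 after centring.

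Anxa2, the gene of the membrane-binding protein annexin A2, had 6.05%, 4.57% and 5.93% against 18.1%, 20.5% and 14.9%. Ctsd, the gene of the lysosomal protease cathepsin D, had 1.25%, 1.22% and 2.04% against 4.82%, 7.26% and 6.11%. Neither overlapped between genotypes, and both stayed under 0.05 in limma adjusted p without TTP-KO library B (0.020 each) and after centring (0.019 and 0.039). None of Lgals3, Anxa2 and Ctsd has either motif in its annotated 3' untranslated region.

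Fth1, the gene of the ferritin heavy chain, which stores iron, had 11.7%, 12.4% and 14.8% in WT and 25.5%, 27.0% and 27.0% in TTP-KO. Lyz2, which encodes lysozyme and is used as a marker of monocytes and macrophages, had 12.5%, 23.2% and 17.3% against 26.4%, 31.3% and 29.8%. Both were called at 10000 reads (limma adjusted p = 0.00027 and 0.0092), Lyz2 only because its reads are high in TTP-KO (a mean of 5433 in WT and 14701 in TTP-KO at 1 h), and neither after centring (0.089 and 0.54). Apoe and Ctss, further markers of that list with 2841 and 2350 reads, overlapped between genotypes. The summed macrophage markers were higher in TTP-KO at 1 h, as given above, and their part in these differences was not tested.

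Of 16 genes of basophil identity with at least 10000 reads, 1 was called (against 21.7% of the 263), and their median difference was 0.55 on the log2 odds scale beside 0.53 over the 263 genes. The TTP-KO mean was the higher one in 15 of the 16. The called gene was Lilrb4a, whose reads may be shared with the near-identical Gm49339. Mcpt8, the gene of a basophil granule protease, had 14.5%, 13.4% and 16.5% in WT and 15.2%, 19.0% and 15.6% in TTP-KO. Its 222591 reads make it one of the best measured genes, and its groups overlapped (difference 0.19 ± 0.25, limma adjusted p = 0.53, and -0.36 after centring). Prss34, another granule protease gene, had 19.4%, 19.3% and 23.8% against 17.6%, 23.4% and 20.6%. The receptor chains Fcer1a and Ms4a2, with 4267 and 2345 reads, overlapped too.

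Genes of general upkeep were described in the same way. Of the 57 ribosomal protein genes with at least 10000 reads, 7 were called (against 21.7% of the 263), and their median difference was 0.44 on the log2 odds scale beside 0.53 over the 263 genes. Actb, the gene of β-actin, had 11.1%, 10.1% and 12.0% against 13.1%, 17.5% and 13.1%, a difference of 0.44 ± 0.27 (limma adjusted p = 0.21) that became -0.11 after centring. Gapdh, with 4640 reads, had 10.3%, 7.11% and 6.29% against 11.4%, 12.2% and 12.0%. S100a9, a calcium-binding protein gene abundant in neutrophils, went the other way. It had 19.3%, 15.0% and 16.8% in WT and 12.3%, 15.8% and 10.8% in TTP-KO. Its groups overlapped, and it was called lower only after centring (-1.03, limma adjusted p = 0.019). Of 2 neutrophil markers with at least 10000 reads, 0 had the higher mean in TTP-KO, with a median difference of -0.41 on the log2 odds scale. The 14 neutrophil markers tested had medians of 18.2% in WT and 12.8% in TTP-KO. In 0 of the 14 did the TTP-KO libraries all lie above or all lie below the WT libraries.

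Within WT cells, cytokine genes lay at the low end of the labelled share. The lowest of the 263 were Osm, with 0.32% ± 0.28, Areg with 0.44% ± 0.71 and Nr4a3 with 0.50% ± 0.48 (SD, n = 3 each), and the highest was Hmgb2, a chromatin protein gene, with 39.4% ± 4.78. The 57 ribosomal protein genes had a median of 15.8%, the 16 genes of basophil identity 7.17% and the 11 cytokine genes 1.66%. The s4U was present throughout the antigen pulse, so RNA made in that pulse could carry label. The low shares of cytokine genes therefore need not give the part of their RNA that was new. Why they were low was not tested. Across the 263 genes the WT share had a rank correlation of -0.33 with the T content of the last 300 transcript bases, where conversions can be read, and the difference between genotypes one of 0.17. Among the 3926 genes with at least 500 reads, the highest WT means were those of Cdc20 (81.5% ± 20.3), Lpl (72.5% ± 33.3), Ccna2 (71.6% ± 2.09), Rrm2 (70.6% ± 12.9) and Marcks (68.9% ± 12.8), each SD over 3 libraries. At the other end 36 genes were at 0 in all 3 WT libraries, so the lowest 5 cannot be ranked, and 13 were at 0 in all 3 TTP-KO libraries.

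**Figure D5:**
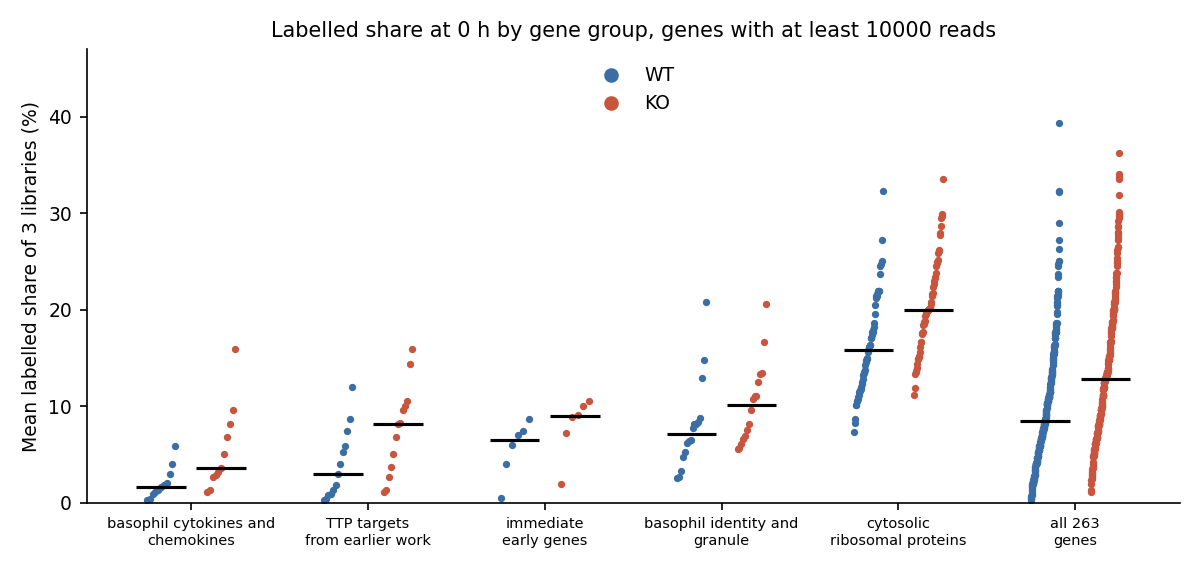
Mean labelled share over 3 libraries (y axis, percent) of each gene with at least 10000 reads, by gene group (x axis) and genotype; each point is a gene and bars are medians. Cytokine genes have a WT median of 1.66% and ribosomal protein genes one of 15.8%, and genes can be in more than 1 group.

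Libraries taken 2 h after the wash gave the same measure in samples that the 0 h calls did not use. The labels do not say whether they came from other mice than the 0 h libraries. Shares at 2 h were not centred, and the label load of the 263 genes was still higher in TTP-KO then. The 57 genes also include Il1b, Lyz2 and Ppbp, which passed the read minimum only through TTP-KO. Of the 57 genes called at 0 h, 23 had all 3 TTP-KO libraries above all 3 WT libraries at 2 h (40.4%), against 35 of the 206 others (17%) and 22.1% of the 263. At 4 h it was 4 of 57 and 5 of 206, or 3.42% of the 263, and 23 of the 263 (22 of them among the 206) had all TTP-KO libraries below WT. The TTP-KO mean was the higher one in 83 of 263 at 4 h, against 198 at 2 h. WT library B of 4 h stood apart and raises the WT means behind the count at 4 h. Averaged over the 263 genes, the share at 4 h was 4.25%, 9.81% and 4.43% in WT libraries A, B and C. It was 4.40%, 4.15% and 4.78% in the TTP-KO libraries. Lgals3 had 5.55%, 7.72% and 8.87% in WT and 20.1%, 17.1% and 15.8% in TTP-KO at 2 h, without overlap. Il6 was listed at 0 in all 6 libraries of 2 h, and Ccl3 at 0%, 0% and 0.03% against 1.57%, 1.45% and 0.83%.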

How the data were processed

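Libraries of polyadenylated RNA were made with a 3' tag kit after alkylation, per the labels' protocols. GRCm39, STAR 2.7.10a, cutadapt 3.5 and SAMtools are listed in the submitters' processing notes. For the caller of new RNA, the tool is not given in the sources used here. Per the file headers, the deposited values are a new-to-total ratio (MAP, a fraction from 0 to 1) and read counts. The authors' deposited read columns were taken to be expected counts, because 12.5% of the 1 h values are not whole; how they were made is not stated. Its columns carry letters and the labels numbers, so a column was placed in its group only, and 1 kind of column per group was chosen: ratios at 0, 2 and 4 h and reads at 1 h, for depth. Another 144 columns, the 0 h reads and total RNA among them, were not used here.

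Genes with a ratio in all 6 libraries and a mean of at least 100 reads at 1 h were tested (7845 of 15737; depth at 0 h itself was not used, so no interval is given). Ratios were clipped to 0.01 and 0.99, turned into log2 odds and fitted with limma 3.58.1 in R 4.3.3. The fit used trend and Benjamini-Hochberg, with a call at adjusted p under 0.05. Clipping understates differences of shares under 1%. It also narrows the spread among such shares, so it can lower a p-value. For Ptgs2 at 10000 reads, clipping at 0.001 raised the SE from 0.52 to 0.76 and the limma adjusted p from 0.017 to 0.049. With that clipping, 45 of the 57 genes were still called. The code was tested on simulated data: at 10000 reads 11 of 20 changes of 1 and 20 of 20 changes of 2 on the log2 odds scale were recovered. Named genes were 22 set by name and the highest and lowest in WT; no gene could be named from the planned test, so genes from the 10000-read fit were named after their values were seen. Members and lists were chosen with earlier results of these data known. Deviations from the group mean correlated at -0.069, 0 and 0.006 between WT and TTP-KO libraries of the same letter. Between different letters it was -0.039 to 0.039 (1341 genes). Noise in the shares could hide a common origin, so these values cannot decide whether letters pair libraries.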

Additional observations from a re-analysis of the deposited data

How the results depend on the processing

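The label load was higher in TTP-KO under every alternative run, by 5.28 points as a mean over genes, 6.41 without a filter, 5.18 at 500 reads, 4.87 in ribosomal, respiratory and glycolysis genes, 3.66 at 10000 reads and 4.72 to 7.37 leaving out 1 library (lowest without TTP-KO library B). The planned count of called genes was 0 with limma, and stayed 0 on the arcsine and untransformed scales, with clipping at 0.001, centring, 500 reads, and no trend with robust moderation. It was 2 without a filter (1 higher, 1 lower) and 0 to 2 leaving out 1 library (higher 0 to 1, lower 0 to 2). With the 2 h and 4 h libraries in the fit it was 182 (156 higher, 26 lower); the cause was not tested. With the letter as a replicate block it was 0 (473 at an unadjusted p under 0.05).

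Settings added after seeing the data are given here by kind. A spread modelled by reads called 0. It also called 0 when centred, on the arcsine scale, with a replicate block, without each library and centred without TTP-KO library B. Clipped at 0.001 it called 1 (higher), and at 500 reads 4 (higher). A minimum of 2000 reads called 0, also when centred, clipped at 0.001 or without TTP-KO library B. A minimum of 10000 called 57. The 10000-read fit was followed up because, of the read minimums tried, it alone gave calls. Its 57 became 6 when centred (5 higher, 1 lower), 45 clipped at 0.001, 55 on the arcsine scale, 45 with robust moderation, 40 with a replicate block, 47 with 10000 reads in the mean of each genotype, and 9 to 70 leaving out 1 library: 32 without WT library A, 28 without B, 58 without C, 70 without TTP-KO library A, 9 without B and 27 without C. Centred without TTP-KO library B, 1 was called. The cause was not tested.

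Among single genes, none of which the planned test called, the sign turned on centring for Areg (-0.39), Plaur (-0.57), Mcpt8 (-0.56), Fcer1a (-0.27), Actb (-0.31) and Gapdh (-0.070), the same with spread modelled by reads; at 2000 reads for Areg (-0.25), Plaur (-0.43), Mcpt8 (-0.41), Fcer1a (-0.13) and Actb (-0.16); and centred without TTP-KO library B for Areg (-0.72), Plaur (-0.69), Apoe (-0.23), Mcpt8 (-0.53), Fcer1a (-0.54) and Actb (-0.32). Clipped at 0.001 Il13 was 0.37. Ms4a2 was 0.0019 on the arcsine scale and 0.0028 untransformed. Leaving out 1 library, the ranges crossed 0 for Zfp36l1 (-1.22 to 0.52), Il13 (-1.13 to 0.66), Ms4a2 (-0.44 to 0.38), Plaur (-0.28 to 0.43), Areg (-0.11 to 0.60) and Apoe (-0.26 to 2.40). With spread modelled by reads the turned values were 0.14, 0.16, 0.27 and 0.52 for Zfp36l1, 0.057, 0.17 and 0.66 for Il13, 0.019, 0.32 and 0.38 for Ms4a2, and -0.088 and -0.28 for Plaur; at 2000 reads without TTP-KO library B, Plaur was -0.088 and Ms4a2 0.019.

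Total RNA at 0 h and its alternatives were not run: 1 kind of column was used per group, and at 0 h the ratios were chosen.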
